A study of Mus musculus with 39 samples.

Results

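Cell cycle and DNA replication genes were followed through the maturation of sorted mouse photoreceptors. The set held 54 listed genes, of which 53 had a probe set paired with their symbol alone. Each gene was read from its brightest such probe set, out of 18193 genes measured in the same way. Ccnb1, the cyclin B partner of Cdk1, had no probe set of its own and was not analysed. The 53 genes comprised 10 cyclins and cyclin-dependent kinases (CDKs), 19 genes of DNA replication and nucleotide supply, 18 genes of mitosis, and 6 regulators and inhibitors.

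The study profiled photoreceptors at 5 stages: embryonic day 16 (E16), postnatal days 2, 6 and 10 (P2, P6 and P10), and 4 weeks. In the wt groups a transgene in which the Nrl promoter drives Gfp labelled rod precursors and rods. In the ko groups the same transgene had been crossed into Nrl-ko mice, which lack Nrl, the transcription factor that specifies rods, and the labelled cells were those described as transformed S-cones. GFP-positive cells were isolated by fluorescence-activated sorting, so every group carries the Gfp transgene and cells were selected for activity of the Nrl promoter. The share of other cells that passed the sort was not tested. The title of ko 4 weeks replicate 1 alone adds the word retina. Affymetrix mouse expression arrays were hybridised with amplified RNA. There were 39 arrays, with 3 in ko E16 and 4 in each of the other 9 groups. Whether replicate arrays represent different animals or litters is not given in the labels, so p-values measure only the spread between arrays. Values are log2 signals, and a difference of 1 is a 2-fold change in linear signal.

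Dividing cells make D-type and E-type cyclins and their kinases to enter DNA synthesis, load the MCM helicase at replication origins, raise the supply of deoxynucleotides, and then build the spindle and divide with A-type and B-type cyclins. When retinal progenitors leave the cycle to become photoreceptors, these genes are shut down, and CDK inhibitors help to hold the cells out of cycle. Many S-phase genes are regulated through E2F sites, and many mitotic genes through a promoter element called CHR (cell cycle genes homology region), often beside CCAAT boxes.

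Before the genes of the cycle are described, the arrays are compared with their labels. Nrl ranged from 8.76 to 12.33 over the 20 wt arrays and from 5.36 to 6.48 over 18 of the 19 ko arrays. The array labelled ko 4 weeks replicate 2 read 9.05 for Nrl, inside the range of wt E16 (8.76 to 10.61) and against its label. Gnat1, the rod transducin subunit, read 7.76 there and did not stand above the other 3 arrays of its group (7.84 to 7.98). Gnat1 was low in wt E16 as well (7.40 to 7.72), so its level does not separate wt E16 from ko. At 4 weeks Gnat1 stood at 13.33 ± 0.08 (SD, n = 4) in wt and 7.91 ± 0.07 (SD, n = 3) in ko without that array, and the S-opsin gene Opn1sw at 9.27 ± 1.28 (SD, n = 4) in wt and 13.08 ± 0.15 (SD, n = 3) in ko without it. At E16 Opn1sw was higher in wt (9.97 to 11.41) than in ko (8.53 to 8.95), and at 4 weeks the arrestin gene Sag, counted among the rod markers, was high in both genotypes (means of 13.39 in wt and 13.27 in ko without that array). The array labelled ko 4 weeks replicate 2 is shown apart below, and results at ko 4 weeks are given with and without it. The spread of values over probe sets was lowest on 5 other arrays (ko E16 replicate 3, ko P2 replicate 4, ko P6 replicate 4, and wt P10 replicates 1 and 2), and counts without those 6 arrays are given where they differ.

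Promoter sequence was examined first, because the replication and mitosis genes are known for different promoter elements. RefSeq promoter windows (build GRCm38.p6, from 250 bases before to 50 bases after the start) were found for 43 of the 53 genes. The CHR, searched as TTTGAA or TTCGAA on both strands, was present in 12 of 16 mitosis windows and in 3 of 17 replication windows, against 19.4% of all 27025 promoter windows. A CCAAT box, searched as CCAAT on both strands, stood in 13 of 16 mitosis windows and 11 of 17 replication windows, against 37.9% of all windows. The E2F motif, searched as TTTGGCGC, TTTCCCGC, TTTCGCGC or TTTGCCGC on both strands, was found in 7 of 17 replication windows (Cdc6, Mcm3, Mcm5, Mcm6, Mcm7, Pola1 and Rfc3), in the windows of Cdk1 and Cdk2, and in 0 of 16 mitosis windows, against 2.32% of all windows. CHR and CCAAT box occurred together in 12 of 16 mitosis windows and in 7.7% of all windows. These matches describe letters in a window and were not tested as binding sites.

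The 4 stretches below show the contrast. Cdk1, the kinase that drives entry into mitosis, has all 3 motifs. Top2a, the topoisomerase that untangles sister chromosomes, and Mki67, the proliferation antigen that coats mitotic chromosomes, have CHR and CCAAT letters. Mcm5, a subunit of the replicative helicase, has E2F and CCAAT letters, and its 2 E2F matches overlap. Motif letters are in capitals, each stretch runs 5′ to 3′ on the gene's strand and ends at the base before the annotated start. The Cdk1 stretch is chr10:69352913-69353072, the Top2a stretch chr11:99024190-99024349 and the Mki67 stretch chr7:135716380-135716579, all on the minus strand, and the Mcm5 stretch is chr8:75109349-75109508 on the plus strand.
Cdk1: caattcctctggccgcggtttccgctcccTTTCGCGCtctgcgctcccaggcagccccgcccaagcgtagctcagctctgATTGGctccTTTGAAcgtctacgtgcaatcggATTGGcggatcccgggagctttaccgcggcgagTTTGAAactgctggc
Top2a: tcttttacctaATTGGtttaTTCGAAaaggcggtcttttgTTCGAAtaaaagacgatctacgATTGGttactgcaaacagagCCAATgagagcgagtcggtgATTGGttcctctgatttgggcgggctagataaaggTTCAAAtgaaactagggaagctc
Mki67: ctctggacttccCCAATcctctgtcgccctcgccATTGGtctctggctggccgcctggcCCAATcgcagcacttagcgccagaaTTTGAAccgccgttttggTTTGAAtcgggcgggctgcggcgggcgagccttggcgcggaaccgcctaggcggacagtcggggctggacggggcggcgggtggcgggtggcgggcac
Mcm5: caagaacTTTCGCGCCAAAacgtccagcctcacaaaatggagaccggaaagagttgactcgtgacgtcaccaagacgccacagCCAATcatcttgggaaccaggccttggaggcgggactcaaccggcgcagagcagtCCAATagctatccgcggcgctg

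Most of the decline in these genes lay between P2 and P10. In wt, the number of the 53 genes that fell below E16 was 1 at P2, 18 at P6, 27 at P10 and 28 at 4 weeks (limma, adjusted p under 0.05 with Benjamini-Hochberg adjustment over all genes). The same contrasts called 2.87%, 5.05%, 14.3% and 11.6% of all genes lower, so the share of cell cycle genes was above the background from P6 on. In ko, 1 gene fell at P2, 17 at P6, 21 at P10 and 8 at 4 weeks, beside 0.748%, 3.32%, 4.38% and 3.25% of all genes. Without the array labelled ko 4 weeks replicate 2 the ko count at 4 weeks was 24, beside 5.12% of all genes, and the other counts were 2, 22, 30 and 30 in wt and 2, 20 and 25 in ko, in stage order. Without that array the same contrasts called 3.52%, 5.55%, 14.8% and 11.8% of all genes lower in wt and 0.929%, 3.99% and 5.06% in ko. With only the 2 groups of a contrast in the fit, the ko counts were 0, 2, 10 and 0. Single E16 arrays carried much of the P6 counts. Without wt E16 replicate 1, wt E16 replicate 3 or wt P6 replicate 4 the wt count at P6 was 6, 10 or 11, without ko E16 replicate 1 or replicate 2 the ko count at P6 was 6 or 9, and without ko E16 replicate 1 the ko count at P10 was 12. The ko count at 4 weeks was 5 without ko 4 weeks replicate 1 or replicate 3, and 14 without ko E16 replicate 3. Leaving out any 1 array moved the wt counts at P10 and 4 weeks by less than 1.5 times, to between 21 and 31 and between 22 and 30. Rises against E16 were called for Bub1b and Cdkn2c in wt at 4 weeks, beside 6.66% of all genes called higher, and for Bub1b in ko at 4 weeks, beside 4.12%.

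The median change of the 53 genes from E16 was -0.13, -0.57, -0.80 and -0.72 in wt at P2, P6, P10 and 4 weeks. Over all genes the corresponding medians were 0.09, 0.09, 0.09 and 0.05. In ko, the median change was -0.17, -0.47, -0.68 and -0.41, against 0.08, 0.00, -0.03 and -0.03 over all genes, and at 4 weeks it was -0.66 without the array labelled ko 4 weeks replicate 2. Scaling every array to the same median and spread moved the all-gene median of wt P2 from 0.09 to -0.02. After quantile normalization the median of the 53 genes at P2 was -0.01 in wt and -0.08 in ko, and from P6 on it lay between -0.63 and -0.45 in wt and between -0.64 and -0.39 in ko. With equal median and spread it lay between -0.73 and -0.47 in wt and between -0.64 and -0.41 in ko from P6 on.

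Markers of retinal progenitors declined over the same stages. The mean of 16 such markers lay between 9.27 and 9.96 on the wt E16 arrays and between 7.21 and 7.53 on the wt P10 arrays, and in ko it went from a range of 8.14 to 9.46 at E16 to 7.18 to 7.35 at P10. From E16 to P10, 15 of the 16 fell in wt, beside 14.3% of all genes called lower, and 9 in ko, beside 4.38%. The exception in wt was Hes1, a Notch target. Their part in the decline of the cell cycle genes was not tested. In sorted bulk samples, fewer cycling cells and less cell cycle RNA per cell cannot be told apart.

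**Figure D1:**
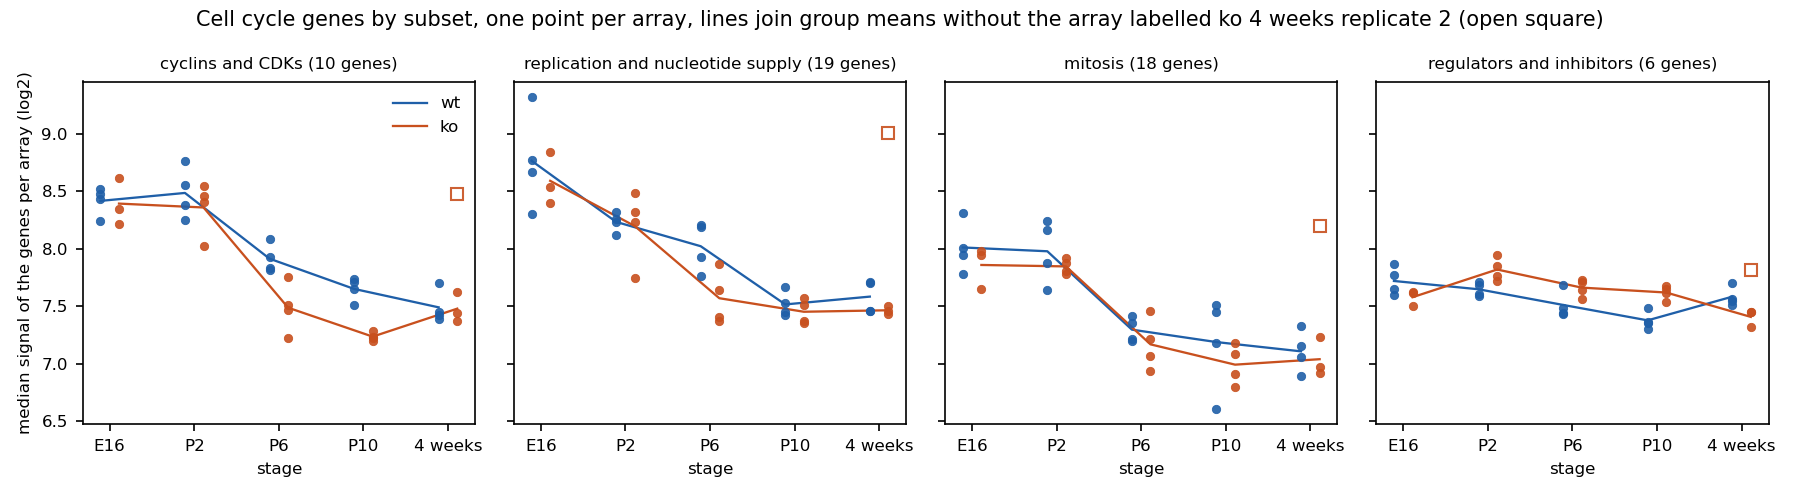
Median log2 signal of the genes of each subset (y axis) at each stage (x axis), with 1 point per array, wt in blue and ko in orange, and lines that join group means without the array labelled ko 4 weeks replicate 2 (open square). Cyclins, replication genes and mitosis genes are lower at P6 and later than at E16 in both genotypes. Replication genes have lower means already at P2 (8.23 against 8.77 at E16 in wt, 8.20 against 8.59 in ko), with overlapping arrays. The array shown as an open square lies at 8.48, 9.00 and 8.20 for cyclins, replication genes and mitosis genes, in the range of E16.

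**Figure D2:**
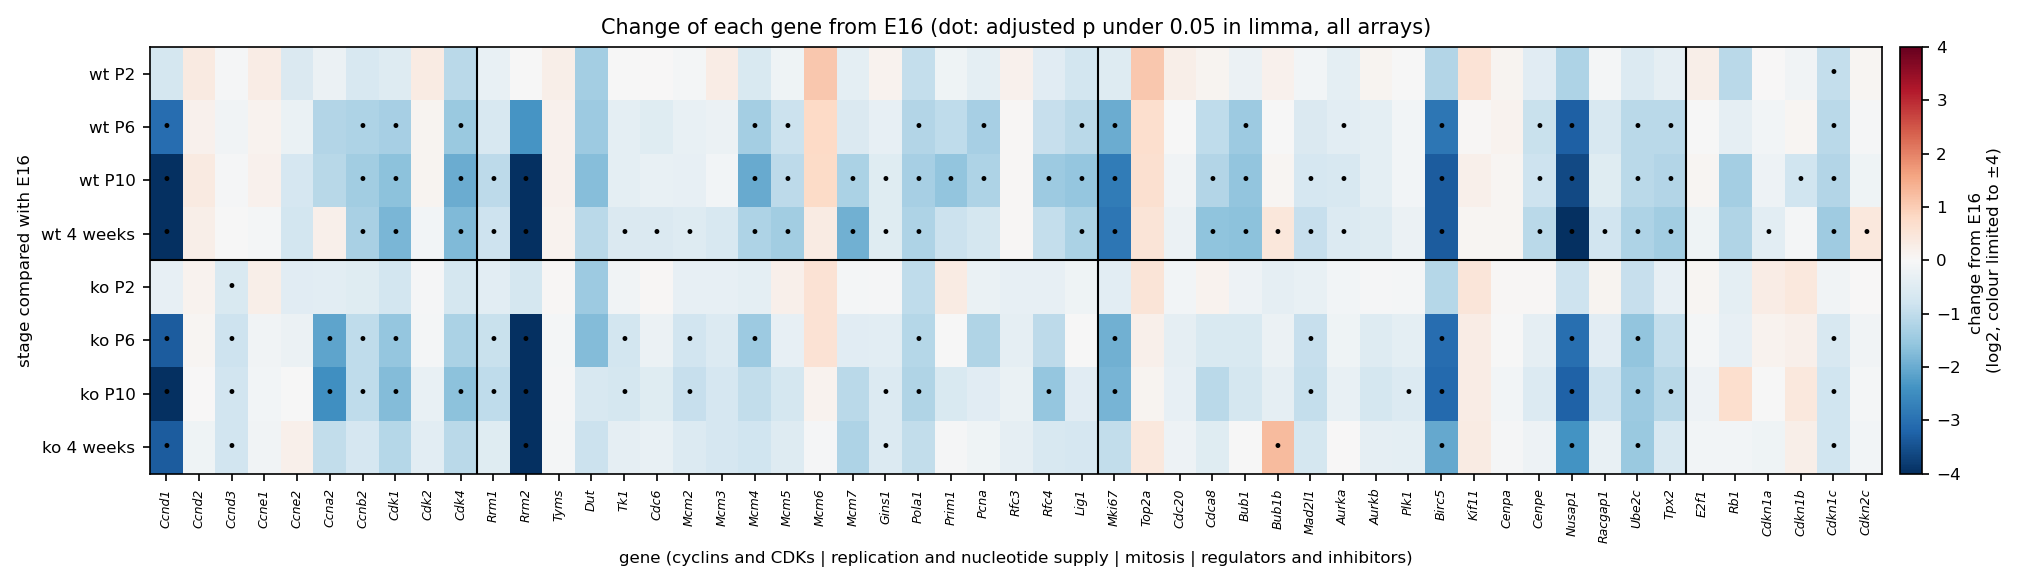
Change of each of the 53 genes from E16 (colour, log2, limited to ±4) at each later stage in wt and ko (rows), with a dot where limma called the change at an adjusted p under 0.05 using all arrays. The dots are nearly absent at P2, spread at P6 and P10, and thin out in ko at 4 weeks, where 8 genes are called lower and 1 higher.

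The single genes called at P2 were Cdkn1c in wt and Ccnd3 in ko, and the P2 counts rested on ko E16 replicate 3. Without that array, 6 genes in wt and 12 in ko were called lower at P2, but the background rose with them to 10.8% and 15.8% of all genes. Without all 6 doubted arrays the counts were 11 in wt, beside 19.1% of all genes, and 14 in ko, beside 15.5%. Among the genes called lower in ko without ko E16 replicate 3 were Dut (-2.72), Birc5 (-2.00), Pola1 (-1.60), Cdk4 (-1.51) and Cdk1 (-1.20). The wt count was also 4 without wt E16 replicate 2 and 3 without wt P10 replicate 3, and the ko count was 0 without ko E16 replicate 1.

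Among cyclins and CDKs, 4 of 10 genes had fallen by P6 in wt (Ccnd1, Ccnb2, Cdk1 and Cdk4) and the same number by P10 and 4 weeks. In ko, 5 of 10 had fallen by P6 and 6 by P10, with Ccnd1, Ccnd3, Ccna2, Ccnb2 and Cdk1 at both stages and Cdk4 added at P10, and 2 at 4 weeks or 6 without the array labelled ko 4 weeks replicate 2. At P6, P10 and 4 weeks the same contrasts called 5.05%, 14.3% and 11.6% of all genes lower in wt. In ko they called 3.32%, 4.38% and 3.25%, or 5.12% at 4 weeks without that array. These shares also stand beside the replication and mitosis counts below. Ccnd2, Ccne1, Ccne2 and Cdk2 were not called at any stage in either genotype, with changes from E16 between -0.72 and 0.37.

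Ccnd1 encodes cyclin D1, the main D-type cyclin of retinal progenitors. Ccnd1 in wt read 12.96, 12.26, 12.64 and 12.54 at E16, 11.29, 12.79, 12.22 and 11.25 at P2, 8.47, 10.65, 10.56 and 8.53 at P6, 7.73, 7.79, 8.09 and 7.77 at P10, and 8.53, 7.58, 8.31 and 7.68 at 4 weeks. Ccnd1 in ko read 12.48, 12.08 and 11.80 at E16, 11.91, 12.13, 11.64 and 11.46 at P2, 9.31, 8.59, 8.50 and 8.82 at P6, 7.25, 7.84, 7.34 and 7.70 at P10, and 7.46, 7.72 and 7.61 on the other 3 arrays at 4 weeks. E16 and P2 arrays were high in both genotypes, the wt P6 arrays split into a pair at 8.47 and 8.53 and a pair at 10.56 and 10.65, and all P10 arrays lay below all P6 arrays of their genotype. The fall from E16 to P10 was 4.76 on the log2 scale in wt (SE 0.64, adjusted p = 3.94e-06) and 4.59 in ko (SE 0.69, adjusted p = 2.85e-05).

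Ccna2 encodes cyclin A2, which acts in S phase and at entry into mitosis, and the arrays of the genotypes did not overlap at P6 and P10. Ccna2 in wt read 10.35, 9.48, 10.09 and 9.98 at E16, 8.85, 10.79, 10.22 and 9.13 at P2, 8.81, 9.41, 8.88 and 8.07 at P6, 7.92, 8.09, 9.51 and 9.94 at P10, and 10.43, 10.11, 10.19 and 10.01 at 4 weeks. Ccna2 in ko read 10.16, 9.95 and 8.55 at E16, 9.55, 9.60, 9.12 and 8.28 at P2, 6.88, 7.60, 7.57 and 7.69 at P6, 7.25, 7.32, 6.92 and 6.88 at P10, and 7.72, 7.99 and 8.03 on the other 3 arrays at 4 weeks. The wt 4 weeks arrays were as high as wt E16, and the ko arrays at P6 and P10 lay below every wt array of the same stage. The change from E16 to P10 was -1.11 in wt (SE 0.50), which missed the threshold (adjusted p = 0.0882, or 0.0477 without the array labelled ko 4 weeks replicate 2), and Ccna2 fell by 2.46 in ko (SE 0.54, adjusted p = 0.00256). At 4 weeks the wt change from E16 was 0.21 (adjusted p = 0.839). The change from E16 was not called as different between the genotypes at P10 (-1.35, adjusted p = 0.301) or at 4 weeks (-1.19, adjusted p = 0.579, or -1.86 and 0.148 without the array labelled ko 4 weeks replicate 2).

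Cdk4, the kinase partner of D-type cyclins, read 11.01, 10.24, 10.78 and 10.33 at E16, and 8.30, 8.30, 9.18 and 8.63 at P10 in wt. Cdk4 in ko read 10.90, 10.91 and 8.48 at E16, and 8.38, 8.61, 8.38 and 8.49 at P10. In wt the stages did not overlap, and in ko replicate 3 at E16 lay among the P10 arrays. Cdk4 fell from E16 to P10 by 1.99 in wt (SE 0.42, adjusted p = 0.00107) and by 1.63 in ko (SE 0.45, adjusted p = 0.0196), the ko call being lost without ko E16 replicate 1 (adjusted p = 0.178).

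Cdk1 read 9.30, 8.42, 9.20 and 8.62 at E16, 7.40, 7.84, 7.39 and 7.59 at P6, and 7.20, 7.40, 6.87 and 7.53 at P10 in wt. Cdk1 in ko read 9.53, 9.07 and 7.96 at E16, 7.27, 7.24, 7.11 and 7.63 at P6, and 7.42, 6.89, 7.13 and 7.07 at P10. Every P6 and P10 array lay below every E16 array of its genotype. It fell from E16 to P10 by 1.64 in wt (SE 0.34, adjusted p = 9.99e-04) and by 1.72 in ko (SE 0.37, adjusted p = 0.00213). Ccnb2, a mitotic B-type cyclin, fell by 1.38 in wt (adjusted p = 1.69e-04) and by 1.02 in ko (adjusted p = 0.0124, or 0.187 without ko E16 replicate 1).

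Ccnd3, a D-type cyclin, was low throughout and differed at E16. Ccnd3 in wt read 6.60, 6.20, 6.18 and 6.29 at E16, 6.50, 6.09, 6.22 and 6.22 at P2, 6.21, 5.94, 6.20 and 6.42 at P6, 6.39, 6.13, 6.28 and 6.29 at P10, and 6.22, 6.25, 6.26 and 6.44 at 4 weeks. Ccnd3 in ko read 7.17, 6.81 and 6.64 at E16, 6.19, 6.21, 6.19 and 6.41 at P2, 6.04, 5.93, 6.06 and 6.17 at P6, 6.19, 6.03, 6.16 and 6.06 at P10, and 6.29, 6.09 and 6.12 on the other 3 arrays at 4 weeks. The 3 ko E16 arrays lay above every other array of either genotype, and the later stages overlapped. In ko it fell from E16 by 0.62 at P2 (SE 0.12, adjusted p = 0.00687) and by 0.76 at P10 (adjusted p = 8.34e-05), and in wt its changes lay between -0.13 and -0.03, none called. The ko P2 call was lost without ko E16 replicate 1 (adjusted p = 0.221). Its probe set was listed as present in the deposited detection calls for ko E16 and wt P10, and as absent in the other 6 columns from E16 to P10.

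Of the 19 replication and nucleotide genes, 5 had fallen by P6 in wt (Mcm4, Mcm5, Pola1, Pcna and Lig1), 11 by P10 and 11 at 4 weeks. In ko, 6 had fallen by P6 (Rrm1, Rrm2, Tk1, Mcm2, Mcm4 and Pola1), 7 by P10 and 2 at 4 weeks, or 8 at 4 weeks without the array labelled ko 4 weeks replicate 2. Tyms, Mcm3, Mcm6, Rfc3 and Dut were not called with all arrays in either genotype. Their changes from E16 to P10 were between -1.69 (Dut in wt) and 0.76 (Mcm6 in wt). After quantile normalization Mcm5 was not called in wt at P6 (-0.47, adjusted p = 0.406) or P10 (-0.44, adjusted p = 0.343). The wt P6 calls of Mcm5, Mcm4 and Pcna were lost without any 1 of 6, 7 and 5 arrays (adjusted p up to 0.168, 0.184 and 0.104).

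Rrm2, the S-phase subunit of ribonucleotide reductase, which makes deoxynucleotides, moved furthest. Rrm2 in wt read 11.79, 11.50, 11.45 and 11.53 at E16, 10.71, 12.27, 11.92 and 11.29 at P2, 8.31, 10.83, 9.95 and 7.77 at P6, 6.29, 6.25, 5.62 and 5.97 at P10, and 5.86, 5.62, 6.36 and 5.61 at 4 weeks. Rrm2 in ko read 12.06, 11.92 and 10.73 at E16, 11.11, 11.32, 10.92 and 10.16 at P2, 6.41, 5.79, 5.88 and 6.46 at P6, 5.68, 4.97, 5.45 and 5.63 at P10, and 5.28, 5.11 and 5.61 on the other 3 arrays at 4 weeks. P2 arrays were still high in both genotypes, the wt P6 arrays ran from 7.77 to 10.83, and all 4 ko P6 arrays lay below all 4 wt P6 arrays. Rrm2 fell from E16 to P10 by 5.54 in wt (SE 0.81, adjusted p = 1.33e-05) and by 6.14 in ko (SE 0.87, adjusted p = 1.32e-05). Of the 18193 genes, none had a more negative difference from E16 in wt P10, wt 4 weeks, ko P6, ko P10 or ko 4 weeks. Without the array labelled ko 4 weeks replicate 2 its fall from E16 to P6 in wt, 2.35, was called as well (adjusted p = 4.27e-04 against 0.0788 with all arrays).

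Mcm4, a subunit of the MCM helicase, read 11.58, 11.53, 11.27 and 11.38 at E16, 9.96, 10.22, 10.86 and 9.30 at P6, and 9.14, 8.76, 10.44 and 9.42 at P10 in wt. Mcm4 in ko read 11.78, 11.68 and 10.26 at E16, 10.06, 9.95, 9.99 and 9.15 at P6, and 9.94, 10.55, 10.26 and 10.30 at P10. The wt P6 and P10 arrays all lay below wt E16, while in ko replicate 3 at E16 overlapped the P10 arrays. It fell by 2.00 to P10 in wt (SE 0.40, adjusted p = 6.60e-04), and its ko change of -0.98 (SE 0.43) was not called (adjusted p = 0.207). In ko it fell by 1.45 to P6 (adjusted p = 0.0408), a call lost without any 1 of 6 arrays (adjusted p up to 0.282, without ko E16 replicate 1).

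Dut, the enzyme that keeps uracil out of DNA, read 9.32, 9.05, 8.67 and 8.77 at E16, and 6.78, 6.47, 9.12 and 6.67 at P10 in wt. Dut in ko read 10.40, 10.27 and 6.57 at E16, and 8.01, 9.36, 7.96 and 8.42 at P10. Replicate 3 stood apart in both ko E16 (low) and wt P10 (high), and stages overlapped. Its changes of -1.69 in wt (SE 0.64, adjusted p = 0.0513) and -0.64 in ko (SE 0.69, adjusted p = 0.777) were not called.

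Lig1, the ligase that joins replicated DNA fragments, read higher in ko than in wt at P6 and P10. Lig1 in wt read 10.07, 8.96, 9.38 and 9.34 at E16, 8.30, 9.00, 9.21 and 8.26 at P2, 8.56, 8.39, 8.41 and 8.12 at P6, 7.56, 7.91, 7.87 and 8.17 at P10, and 8.84, 7.90, 8.12 and 7.81 at 4 weeks. Lig1 in ko read 9.55, 9.59 and 8.89 at E16, 9.48, 9.28, 9.12 and 8.83 at P2, 9.61, 9.19, 9.69 and 8.76 at P6, 8.90, 9.30, 8.62 and 8.79 at P10, and 8.40, 8.53 and 8.20 on the other 3 arrays at 4 weeks. The ko arrays lay above all wt arrays at P6 and P10, and the groups overlapped at E16 and P2. Lig1 fell from E16 to P10 by 1.56 in wt (SE 0.28, adjusted p = 1.86e-04), and the ko change of -0.44 (SE 0.30) was not called (adjusted p = 0.527). The change of Lig1 from E16 was not called as different between the genotypes at P10.

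Further replication genes were called lower by P10. Prim1, the primase subunit, fell by 1.58 to P10 in wt (adjusted p = 9.98e-04) and showed a ko change of -0.61 (adjusted p = 0.414). Rfc4, a clamp loader subunit, fell by 1.44 in wt (adjusted p = 0.0103) and 1.56 in ko (adjusted p = 0.0183, or 0.1 without ko E16 replicate 1). The wt change of Rfc4 was -0.89 without the 6 doubted arrays (adjusted p = 0.146), and its call was lost without any 1 of 2 arrays (adjusted p up to 0.0593, without wt E16 replicate 1). Pola1, a DNA polymerase subunit, fell by 1.34 in wt (adjusted p = 0.00177) and 1.19 in ko (adjusted p = 0.016, or 0.204 without ko E16 replicate 1). Pcna, the sliding clamp, fell by 1.25 in wt at P10 (adjusted p = 0.0168) and stood at -0.69 at 4 weeks (adjusted p = 0.237), where it was no longer called. The P10 call of Pcna was lost without the 6 doubted arrays (-0.88, adjusted p = 0.08) and without any 1 of 3 arrays (adjusted p up to 0.0771, without wt P10 replicate 2). Mcm7, another helicase subunit, fell by 1.27 at P10 and 1.93 at 4 weeks in wt (adjusted p = 0.0158 and 1.98e-04). Its P10 change was -0.82 after quantile normalization (adjusted p = 0.0807).

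Of the 18 mitosis genes, 8 had fallen by P6 in wt (Mki67, Bub1, Aurka, Birc5, Cenpe, Nusap1, Ube2c and Tpx2), 10 by P10 and 11 at 4 weeks. In ko the counts were 5 at P6 (Mki67, Mad2l1, Birc5, Nusap1 and Ube2c), 7 at P10 and 3 at 4 weeks, or 9 at 4 weeks without the array labelled ko 4 weeks replicate 2. Top2a, Cdc20, Aurkb, Kif11 and Cenpa were not called with all arrays in either genotype, with changes to P10 between -0.69 and 0.64.

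Nusap1, a spindle microtubule protein, read 10.45, 9.67, 9.81 and 9.90 at E16, 7.83, 9.95, 9.42 and 7.68 at P2, 6.48, 7.23, 6.71 and 6.41 at P6, 6.82, 6.78, 5.73 and 6.09 at P10, and 5.72, 5.96, 5.81 and 6.05 at 4 weeks in wt. Nusap1 in ko read 10.38, 9.95 and 7.93 at E16, 9.14, 9.14, 8.38 and 7.71 at P2, 6.22, 6.60, 6.26 and 6.58 at P6, 6.14, 6.15, 6.31 and 6.16 at P10, and 5.91, 6.19 and 5.72 on the other 3 arrays at 4 weeks. The P2 arrays were split in wt and the P6 arrays lay below every P2 array in both genotypes. It fell from E16 to P10 by 3.60 in wt (SE 0.63, adjusted p = 1.55e-04) and by 3.23 in ko (SE 0.68, adjusted p = 0.00184).

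Birc5 encodes survivin, a subunit of the chromosomal passenger complex. It read 10.43, 9.71, 9.81 and 9.66 at E16, 8.27, 9.16, 9.97 and 7.48 at P2, 6.83, 6.97, 7.54 and 6.76 at P6, 6.64, 6.88, 6.26 and 6.52 at P10, and 6.47, 6.72, 6.63 and 6.46 at 4 weeks in wt. Birc5 in ko read 10.74, 10.21 and 7.89 at E16, 8.94, 8.83, 7.98 and 8.15 at P2, 6.35, 6.69, 6.59 and 6.67 at P6, 6.42, 6.68, 6.41 and 6.57 at P10, and 6.83, 6.68 and 6.59 on the other 3 arrays at 4 weeks. At P6 the ko arrays lay below the wt arrays, and ko E16 replicate 3 stood near the P2 arrays. It fell to P10 by 3.33 in wt (SE 0.55, adjusted p = 6.55e-05) and by 3.09 in ko (SE 0.59, adjusted p = 6.10e-04).

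Mki67 read 10.03, 9.00, 9.59 and 9.52 at E16, 8.50, 9.47, 10.05 and 8.07 at P2, 7.07, 7.74, 8.14 and 7.29 at P6, 7.14, 7.03, 6.15 and 6.67 at P10, and 6.21, 7.07, 6.92 and 6.37 at 4 weeks in wt. Mki67 in ko read 9.14, 8.76 and 8.23 at E16, 8.54, 8.35, 8.17 and 8.07 at P2, 6.55, 6.89, 6.55 and 7.21 at P6, 6.995, 6.18, 7.25 and 6.91 at P10, and 7.29, 6.23 and 6.70 on the other 3 arrays at 4 weeks. All arrays at P6 and P10 were below all E16 arrays of their genotype. It fell to P10 by 2.79 in wt (SE 0.54, adjusted p = 4.35e-04) and by 1.87 in ko (SE 0.58, adjusted p = 0.0409), the ko call being lost without any 1 of 6 arrays (adjusted p up to 0.173, without ko E16 replicate 1). The ko call at P6 (adjusted p = 0.0457) was lost without any 1 of 20 arrays (adjusted p up to 0.239, without ko E16 replicate 1). With the replicate block the P6 call was lost as well (adjusted p = 0.0684).

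Other genes of the spindle and its checkpoint followed. Bub1, a checkpoint kinase, fell by 1.57 to P10 in wt (adjusted p = 0.00279), and its ko change of -0.70 was not called (adjusted p = 0.392). Tpx2, which activates Aurora A at the spindle, fell by 1.17 in wt (adjusted p = 0.00311) and by 1.11 in ko (adjusted p = 0.016, or 0.103 without ko E16 replicate 1). Ube2c, the ubiquitin-conjugating enzyme of the anaphase-promoting complex, fell by 1.08 in wt (adjusted p = 0.00285) and by 1.46 in ko (adjusted p = 4.35e-04). Mad2l1, a checkpoint protein, fell by 0.68 in wt (adjusted p = 0.0254) and by 0.94 in ko (adjusted p = 0.00905, or 0.151 without ko E16 replicate 1). The wt change of Mad2l1 was -0.29 after quantile normalization (adjusted p = 0.273), and the wt call was lost without any 1 of 2 arrays (adjusted p up to 0.113, without wt E16 replicate 1).

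Bub1b, which encodes the checkpoint protein BubR1, went the other way. Bub1b in wt read 7.89, 8.10, 7.96 and 8.18 at E16, 8.16, 8.28, 8.41 and 8.02 at P2, 8.13, 7.74, 7.74 and 8.42 at P6, 8.29, 8.24, 7.78 and 8.11 at P10, and 8.55, 8.56, 8.69 and 8.15 at 4 weeks. Bub1b in ko read 8.75, 8.29 and 8.43 at E16, 8.21, 8.11, 8.02 and 8.24 at P2, 8.12, 8.20, 8.25 and 8.38 at P6, 8.19, 8.10, 8.10 and 8.13 at P10, and 9.56, 9.74 and 10.19 on the other 3 arrays at 4 weeks. The array labelled ko 4 weeks replicate 2 read 9.48, and all 4 ko arrays at 4 weeks lay above every other array, wt included. Bub1b rose from P10 to 4 weeks by 1.61 in ko (SE 0.15, adjusted p = 9.41e-09), where 0.72% of all genes were called higher, and was 1.26 higher in ko than in wt at 4 weeks (SE 0.15, adjusted p = 2.03e-07). Without the array labelled ko 4 weeks replicate 2 these values were 1.70 (adjusted p = 1.09e-08) and 1.34 (adjusted p = 2.47e-07). In wt the rise from E16 to 4 weeks was 0.45 (adjusted p = 0.0285), and it was not called after quantile normalization (adjusted p = 0.108) or without any 1 of 5 arrays (adjusted p up to 0.114, without wt 4 weeks replicate 3).

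The higher level of Bub1b in ko than in wt at 4 weeks was read by 2 of its 3 probe sets. Probe set 1447363_s_at was 1.20 higher in ko than in wt at 4 weeks (SE 0.20, adjusted p = 1.45e-04 over all probe sets), and 1447362_at differed by 0.20 (adjusted p = 0.982). Without the array labelled ko 4 weeks replicate 2 the differences were 1.29 and 0.28 (adjusted p = 1.98e-04 and 0.827). From E16 to P10 in wt, 1447363_s_at changed by -0.71 (adjusted p = 0.0175 over all probe sets). The brightest probe set changed by 0.07 there and was not called (adjusted p = 0.709 over all probe sets). The brightest probe set, 1416961_at, was listed as absent in each deposited detection call from E16 to P10 and as present in both columns named Ad.

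**Figure D3:**
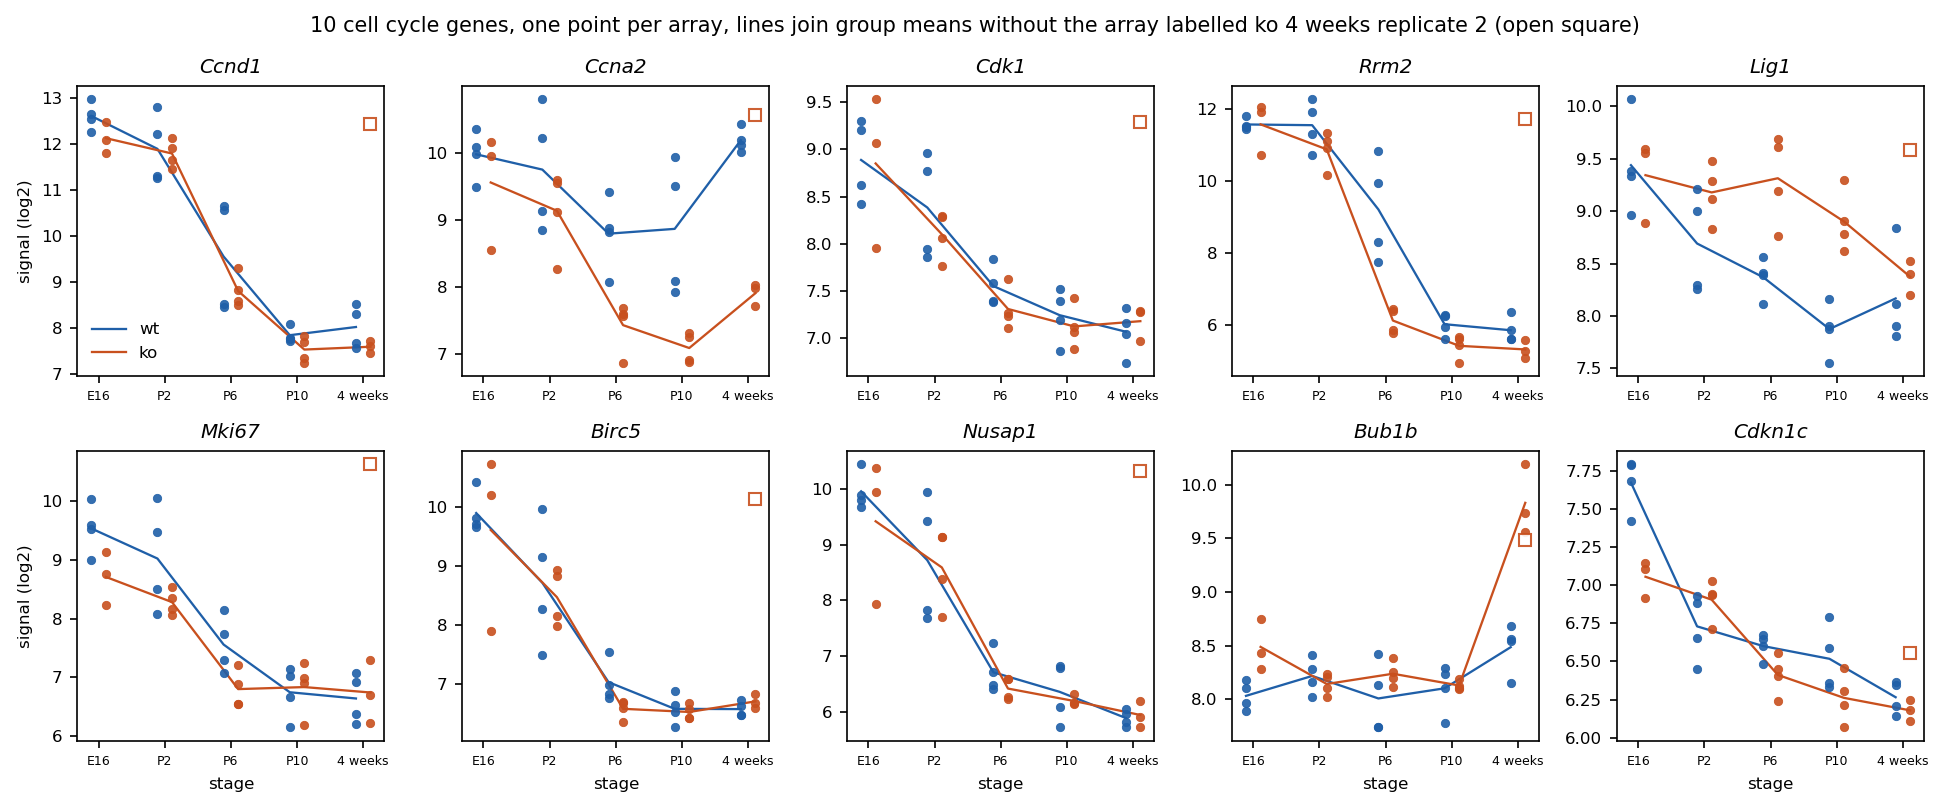
Log2 signal (y axis) of 10 genes at each stage (x axis), 1 point per array, wt in blue and ko in orange, with lines that join group means without the array labelled ko 4 weeks replicate 2 (open square). Ccnd1, Rrm2, Birc5 and Nusap1 fall between P2 and P10, the genotypes do not overlap for Ccna2 and Lig1 at P6 and P10, and Bub1b is highest in ko at 4 weeks.

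Of the 6 regulators and inhibitors, Cdkn1c, a CDK inhibitor of the Cip/Kip family, was called lower at each later stage in wt, and from P6 on in ko. Cdkn1c in wt read 7.79, 7.42, 7.80 and 7.69 at E16, 6.66, 6.89, 6.45 and 6.93 at P2, 6.60, 6.67, 6.64 and 6.48 at P6, 6.36, 6.33, 6.59 and 6.80 at P10, and 6.21, 6.14, 6.37 and 6.34 at 4 weeks. Cdkn1c in ko read 7.11, 7.15 and 6.91 at E16, 6.94, 7.03, 6.94 and 6.71 at P2, 6.56, 6.45, 6.40 and 6.24 at P6, 6.46, 6.31, 6.07 and 6.21 at P10, and 6.24, 6.11 and 6.18 on the other 3 arrays at 4 weeks. The wt E16 arrays lay above every other array, and wt P2 overlapped ko P2. Cdkn1c fell to P2 by 0.95 in wt (SE 0.12, adjusted p = 1.01e-05), and its ko change to P2 was -0.15 (SE 0.13, adjusted p = 0.549). By P10 it had fallen by 1.16 in wt (adjusted p = 3.99e-08) and 0.80 in ko (adjusted p = 9.49e-05). Its probe set was listed as present in wt at E16 alone and as absent in all 5 ko columns, so the ko differences lie between signals not above background by those calls.

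Cdkn1b, the inhibitor of the same family known for holding retinal cells out of cycle, read 11.19, 11.43, 11.14 and 11.19 at E16, 10.49, 11.43, 11.13 and 11.37 at P2, 11.21, 11.48, 11.39 and 11.15 at P6, 9.81, 9.67, 11.15 and 11.12 at P10, and 11.05, 11.09, 11.28 and 11.21 at 4 weeks in wt. Cdkn1b in ko read 11.30, 11.29 and 10.09 at E16, 11.35, 11.33, 11.29 and 11.23 at P2, 11.23, 11.21, 11.21 and 10.76 at P6, 11.26, 11.32, 11.32 and 11.35 at P10, and 10.52, 11.33 and 11.31 on the other 3 arrays at 4 weeks. Only wt P10 replicates 1 and 2, which are among the arrays of low spread, and ko E16 replicate 3 and wt P2 replicate 1 lay at 10.49 or lower. It fell to P10 by 0.80 in wt (SE 0.26, adjusted p = 0.0308), and the call was lost without the 6 arrays named above, where the difference was -0.10 (adjusted p = 0.795). In ko its change was 0.42 (adjusted p = 0.533).

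Cdkn1a, the p53-responsive inhibitor, read 7.93, 7.72, 7.74 and 7.60 at E16, 7.90, 7.78, 7.78 and 7.64 at P2, 7.61, 7.59, 7.47 and 7.88 at P6, 7.49, 7.54, 7.45 and 7.70 at P10, and 7.23, 7.53, 7.27 and 7.27 at 4 weeks in wt. Cdkn1a in ko read 7.75, 7.53 and 7.87 at E16, 8.03, 8.23, 8.02 and 7.78 at P2, 7.96, 7.77, 7.96 and 7.76 at P6, 7.67, 7.77, 7.76 and 7.64 at P10, and 7.49, 7.31 and 7.53 on the other 3 arrays at 4 weeks. Values differed little between stages, with wt 4 weeks the lowest group. Cdkn1a fell from E16 by 0.43 at 4 weeks in wt (SE 0.11, adjusted p = 0.0046), and its ko change there was -0.17 (adjusted p = 0.62), or -0.27 without the array labelled ko 4 weeks replicate 2 (adjusted p = 0.185). With the mean of its probe sets the wt change was -0.19 and was not called (adjusted p = 0.111).

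Cdkn2c, an INK4 inhibitor of Cdk4, read 7.43, 7.48, 7.37 and 7.48 at E16, 7.53, 7.44, 7.59 and 7.54 at P2, 7.25, 7.30, 7.51 and 7.49 at P6, 7.21, 7.33, 7.28 and 7.27 at P10, and 8.19, 7.61, 7.83 and 7.76 at 4 weeks in wt. Cdkn2c in ko read 7.49, 7.70 and 7.59 at E16, 7.49, 7.66, 7.68 and 7.66 at P2, 7.33, 7.36, 7.50 and 7.65 at P6, 7.67, 7.54, 7.48 and 7.43 at P10, and 7.40, 7.34 and 7.38 on the other 3 arrays at 4 weeks. The wt 4 weeks arrays lay above the other wt arrays, while ko replicates 1, 3 and 4 at 4 weeks lay between 7.34 and 7.40. It rose from P10 to 4 weeks by 0.57 in wt (SE 0.10, adjusted p = 3.07e-04), where 4.25% of all genes were called higher. At 4 weeks it was 0.38 lower in ko than in wt (adjusted p = 0.0219), a call lost without any 1 of 4 arrays (adjusted p up to 0.192, without wt 4 weeks replicate 1), and 0.47 lower without the array labelled ko 4 weeks replicate 2 (adjusted p = 0.00258). Cdkn2c was listed as absent in all 10 deposited columns of detection calls, so these differences lie between signals not above background by those calls.

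E2f1, a transcription factor of S-phase genes, read 6.51, 6.49, 6.58 and 6.51 at E16, 6.91, 6.66, 6.56 and 6.84 at P2, 6.51, 6.51, 6.20 and 6.85 at P6, 6.65, 6.85, 6.17 and 6.67 at P10, and 6.27, 6.51, 6.31 and 6.35 at 4 weeks in wt. E2f1 in ko read 6.56, 5.98 and 7.18 at E16, 6.69, 6.57, 6.54 and 6.74 at P2, 6.20, 6.42, 6.51 and 6.88 at P6, 6.51, 6.03, 6.57 and 6.39 at P10, and 6.65, 6.27 and 6.51 on the other 3 arrays at 4 weeks. The stages overlapped in both genotypes, and its changes from E16 lay between -0.20 and 0.22 with none called.

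Rb1, the retinoblastoma protein gene, read 9.84, 10.01, 9.57 and 9.59 at E16, 8.44, 9.31, 7.78 and 9.16 at P2, 9.15, 9.74, 10.07 and 8.63 at P6, 7.39, 7.38, 10.14 and 8.62 at P10, and 8.18, 7.89, 9.01 and 9.07 at 4 weeks in wt. Rb1 in ko read 10.64, 10.72 and 7.41 at E16, 9.76, 9.51, 8.84 and 8.71 at P2, 9.85, 9.31, 9.24 and 8.70 at P6, 9.82, 10.74, 10.14 and 10.29 at P10, and 8.26, 10.01 and 9.83 on the other 3 arrays at 4 weeks. Arrays of one group lay far apart, with ko E16 replicate 3 and wt P10 replicates 1 and 2 the lowest. No change of Rb1 from E16 was called, the changes to P10 being -1.37 in wt (SE 0.56, adjusted p = 0.0688) and 0.66 in ko (SE 0.61, adjusted p = 0.713).

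The timing of exit was described for genes that fell by at least 1 on the log2 scale from E16 to P10 and were called. In wt, 22 genes met this, and by P6 they had covered a median of 81.4% of their fall, with 30.8% covered by P2. In ko, 14 genes met it, with a median of 88.9% by P6 and 33.7% by P2. These shares are ratios of group means and were not tested. The ko E16 means include replicate 3, where Birc5 read 7.89 against 10.74 and 10.21 on the other arrays. Shares without that array were not computed. Within wt the mitosis genes had covered a median of 90.3% by P6 and the replication genes 65.7%. In ko these medians were 98.3% over 5 mitosis genes and 87.1% over 4 replication genes. The lowest wt shares by P6 were those of Rrm2 (42.5%) and Mcm7 (45.9%), followed by Rrm1 (62.5%), Rfc4 (63.0%), Prim1 (63.7%) and Ccnd1 (64.1%), while Rrm2 had covered 88.6% by P6 in ko.

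Between neighbouring stages few genes were called. From P2 to P6, 3 were called in ko. Ccnd1 fell by 2.98 (SE 0.64, adjusted p = 0.0146), Rrm2 fell by 4.75 (SE 0.81, adjusted p = 0.00108) and Cdkn1c fell by 0.49 (SE 0.12, adjusted p = 0.0409), beside 0.132% of all genes called lower. Cdkn1c lost its call with the replicate block (adjusted p = 0.0568), and Ccnd1 lost its call without any 1 of 3 arrays (adjusted p up to 0.0716, without ko P6 replicate 3). In wt, limma called 0 of 53 from P2 to P6 and 0 from P6 to P10, although 20 and 3 had an unadjusted p under 0.05, beside 0.011% and 0.253% of all genes called lower. In ko, 0 of 53 were called from P6 to P10, with 0 at an unadjusted p under 0.05 and 0.731% of all genes called lower.

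The array labelled ko 4 weeks replicate 2 widened the spread shared by these tests. Without it, Ccnd1 fell by 2.34 (adjusted p = 0.00183) and Rrm2 fell by 2.33 (adjusted p = 0.00623) from P2 to P6 in wt, where 0.066% of all genes were called lower. From P6 to P10 in wt, Ccnd1 fell by a further 1.71 (adjusted p = 0.0182) and Rrm2 fell by 3.18 (adjusted p = 3.57e-05), beside 0.5% of all genes. In ko, Ccna2, Mki67, Birc5 and Nusap1 joined those called from P2 to P6, with differences of -1.70, -1.48, -1.90 and -2.18, beside 0.319% of all genes called lower.

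Few of the 53 genes were called between the genotypes at one stage. The tests between ko and wt called 2 genes at E16 and none at P2, followed by 1 gene at P6, 2 genes at P10 and 2 genes at 4 weeks, beside 1.13%, 0.346%, 1.54%, 2.81% and 4.73% of all genes called in either direction. At P2, 2 of the 53 had an unadjusted p under 0.05. No stage gave more than 2 calls among the 53 genes with all arrays.

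At E16, Ccnd3 was 0.56 higher in ko (SE 0.12, adjusted p = 0.0172) and Cdkn1c was 0.62 lower (SE 0.13, adjusted p = 0.0102), and neither was called after quantile normalization (adjusted p = 0.0752 and 0.0594). At P6, Rrm2 was 3.08 lower in ko (6.13 against 9.21, SE 0.81, adjusted p = 0.044), a call lost without any 1 of 20 arrays (adjusted p up to 0.194, without wt P6 replicate 2) and far from the threshold without the array labelled ko 4 weeks replicate 2 (adjusted p = 2.46e-05). With the mean of its probe sets Rrm2 was 1.05 lower in ko at P6 and was not called (adjusted p = 0.175). At P10, Ccna2 was 1.77 lower in ko (SE 0.50, adjusted p = 0.0436) and Lig1 was 1.02 higher (SE 0.28, adjusted p = 0.0359). The Ccna2 call was lost without any 1 of 13 arrays (adjusted p up to 0.193, without wt P10 replicate 4), and that of Lig1 without any 1 of 5 (adjusted p up to 0.168, without ko P10 replicate 2). Without the 6 doubted arrays Lig1 was 0.88 higher in ko at P10 and was not called (adjusted p = 0.0563). Without the array labelled ko 4 weeks replicate 2, 3 more differences were called, Lig1 at P6 (0.94 higher in ko, adjusted p = 0.0398), Racgap1, a regulator of cytokinesis, at P10 (-0.76, adjusted p = 0.0112) and Ccna2 at 4 weeks (-2.27, adjusted p = 8.31e-04).

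The change from E16 was then compared between genotypes. The difference of changes, ko minus wt, was called for 0 of the 53 genes at P2 (4 at an unadjusted p under 0.05), 1 at P6, 1 at P10 and 4 at 4 weeks, beside 0.0989%, 0.764%, 1.4% and 3.07% of all genes in either direction. Ccnd3 was called at 3 stages, with differences of -0.70 at P6 (SE 0.17, adjusted p = 0.034), -0.72 at P10 (SE 0.17, adjusted p = 0.0198) and -0.74 at 4 weeks (SE 0.17, adjusted p = 0.00656), which rest on its higher ko E16 arrays. The first 2 were lost without ko E16 replicate 1 (adjusted p = 0.129 and 0.054) and after quantile normalization, and all 3 with the mean of its probe sets.

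At 4 weeks the difference of changes was 0.80 for Bub1b (SE 0.22, adjusted p = 0.0338), 0.63 for Cdkn1c (SE 0.18, adjusted p = 0.0421) and -0.53 for Cdkn2c (SE 0.15, adjusted p = 0.0433). These calls were lost without any 1 of 7, 12 and 17 arrays (adjusted p up to 0.107, 0.127 and 0.113). Without the array labelled ko 4 weeks replicate 2 the values were 0.89 for Bub1b (adjusted p = 0.0192), 0.53 for Cdkn1c (adjusted p = 0.127), -0.63 for Cdkn2c (adjusted p = 0.00844) and -0.68 for Ccnd3 (adjusted p = 0.02). For Rrm2 at P6 the difference of changes was -3.08, with an adjusted p of 0.28 using all arrays and 0.00739 without the array labelled ko 4 weeks replicate 2.

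On the array labelled ko 4 weeks replicate 2, many genes of the cycle read well above the other 3 arrays of the group. Of the 53 genes, 23 read more than 1 above the highest of the other 3 arrays of the group, against 3.66% of all genes. By subset these were 5 of 10 cyclins and CDKs (Ccnd1, Ccna2, Ccnb2, Cdk1 and Cdk4), 11 of 19 replication genes, 7 of 18 mitosis genes and 0 of 6 regulators. The median of the subset read 8.48 on that array against 7.37 to 7.62 on the other 3 for cyclins and CDKs, 9.00 against 7.44 to 7.50 for replication genes, and 8.20 against 6.92 to 7.23 for mitosis genes. There is 1 such array, so these are values with no test.

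Ccnd1 read 12.42 there against 7.46 to 7.72 on the other 3 arrays, inside the range of the wt and ko E16 arrays (11.80 to 12.96). Nusap1 read 10.32 against 5.72 to 6.19, and Birc5 read 10.14 against 6.59 to 6.83. Bub1 read 7.97 against 5.50 to 5.75, above every other array of the study. The difference of Rrm2, 6.40 above the mean of the other 3, was the largest of all 18193 genes.

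Markers of other cells moved on the same array. The mean of the 16 progenitor markers was 9.29 there and between 7.19 and 7.25 on the other 3, and 11 of the 16 read more than 1 above the highest of them, among them Sox11 (12.67 against 6.82 to 7.11) and Sox2 (11.00 against 6.84 to 7.34). Of 17 amacrine, horizontal and ganglion cell markers 4 did so, of 9 Muller glia markers 2, of 7 rod markers 1 (Nrl), and of 7 cone markers 0. Of 12 microglia and leukocyte markers 1 did so, C1qb (10.70 against 8.55 to 8.66, with E16 arrays at 7.27 to 8.85), and of 8 endothelium and blood markers 0. Over all genes, 3.66% read more than 1 above the highest of the other 3 arrays. A looser measure, reading above all 3 other arrays, held for 40 of the 53 cell cycle genes, against 26.6% of all genes. It held for 14 of the 16 progenitor markers and for 8 of the 12 for microglia and leukocytes. For ganglion, amacrine and horizontal cells it held for 9 of 17, and for Muller glia for 2 of 9. The counts were 1 of 7 for rods, 0 of 7 for cones, and 1 of 8 for endothelium and blood. Opn1sw read 13.13 there and 12.92 to 13.22 on the other 3 arrays. It had the highest of the 7 cone marker differences from the mean of the other 3 arrays, 0.05. The median of those differences was -0.40 and the lowest was -0.63. The part of these markers in the result was not tested.

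**Figure D4:**
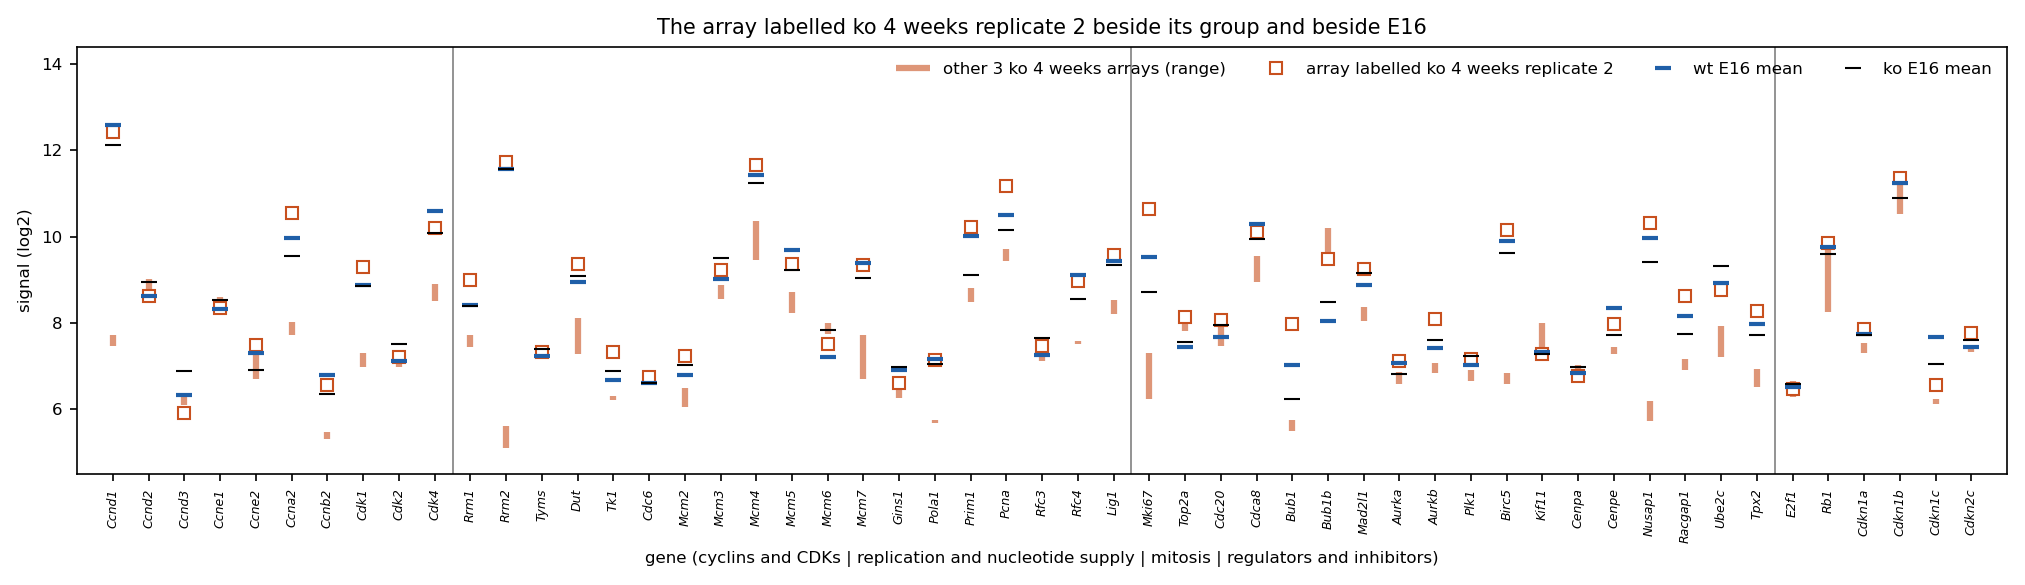
Log2 signal (y axis) of each of the 53 genes (x axis) on the array labelled ko 4 weeks replicate 2 (open square), with the range of the other 3 ko arrays at 4 weeks (orange bar) and the means of wt E16 (blue dash) and ko E16 (black dash). The squares of most cyclins, replication and mitosis genes lie near the E16 means, with Rrm2 at 11.73 against at most 5.61 on the other arrays. The 6 regulators, read from their brightest probe sets, lie near their bars, while a dimmer probe set of E2f1 read 8.44 against 5.92 to 6.31.

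The brightest probe set was not always the one that moved. Of the 53 genes, 39 had several probe sets, and all 45037 probe sets were fitted separately. In 11 genes in wt and 11 in ko, a dimmer one was called lower from E16 to P10 while the brightest was not. Of the 68 dimmer probe sets, 29 in wt and 23 in ko were called lower, beside 10.7% and 3.39% of all probe sets. The share of all genes with such a split was not computed. In wt the 11 genes were Aurkb, Bub1b, Cdc20, Cenpa, E2f1, Kif11, Mcm2, Mcm3, Mcm6, Rfc3 and Top2a. The reverse, with the brightest alone called, held for 6 genes in wt and 4 in ko.

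Top2a shows the size of the difference. Its brightest probe set stood 0.64 above E16 in wt at P10 and 0.11 in ko, neither called (adjusted p = 0.168 and 0.962). Probe set 1454694_a_at fell over the same interval by 4.42 in wt (SE 0.78, adjusted p = 2.45e-04 over all probe sets) and by 4.00 in ko (SE 0.84, adjusted p = 0.00251). That probe set averaged 10.40, 8.92, 7.29, 5.98 and 5.98 over the 5 stages in wt, and read 10.94 on the array labelled ko 4 weeks replicate 2 against a mean of 5.76 on the other 3.

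Mcm6, a helicase subunit, fell by 3.47 in wt and fell by 2.74 in ko on probe set 1438852_x_at (adjusted p = 1.94e-04 and 0.00733) with no call on its brightest. Tpx2 fell by 4.19 in wt and fell by 2.91 in ko on 1428105_at (adjusted p = 1.23e-04 and 0.0154), and Mcm3 fell by 2.65 in wt and fell by 2.08 in ko on 1420029_at (adjusted p = 1.14e-04 and 0.00549). Genes listed above as not called on their brightest probe set are therefore not shown to have kept their level.

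**Figure D5:**
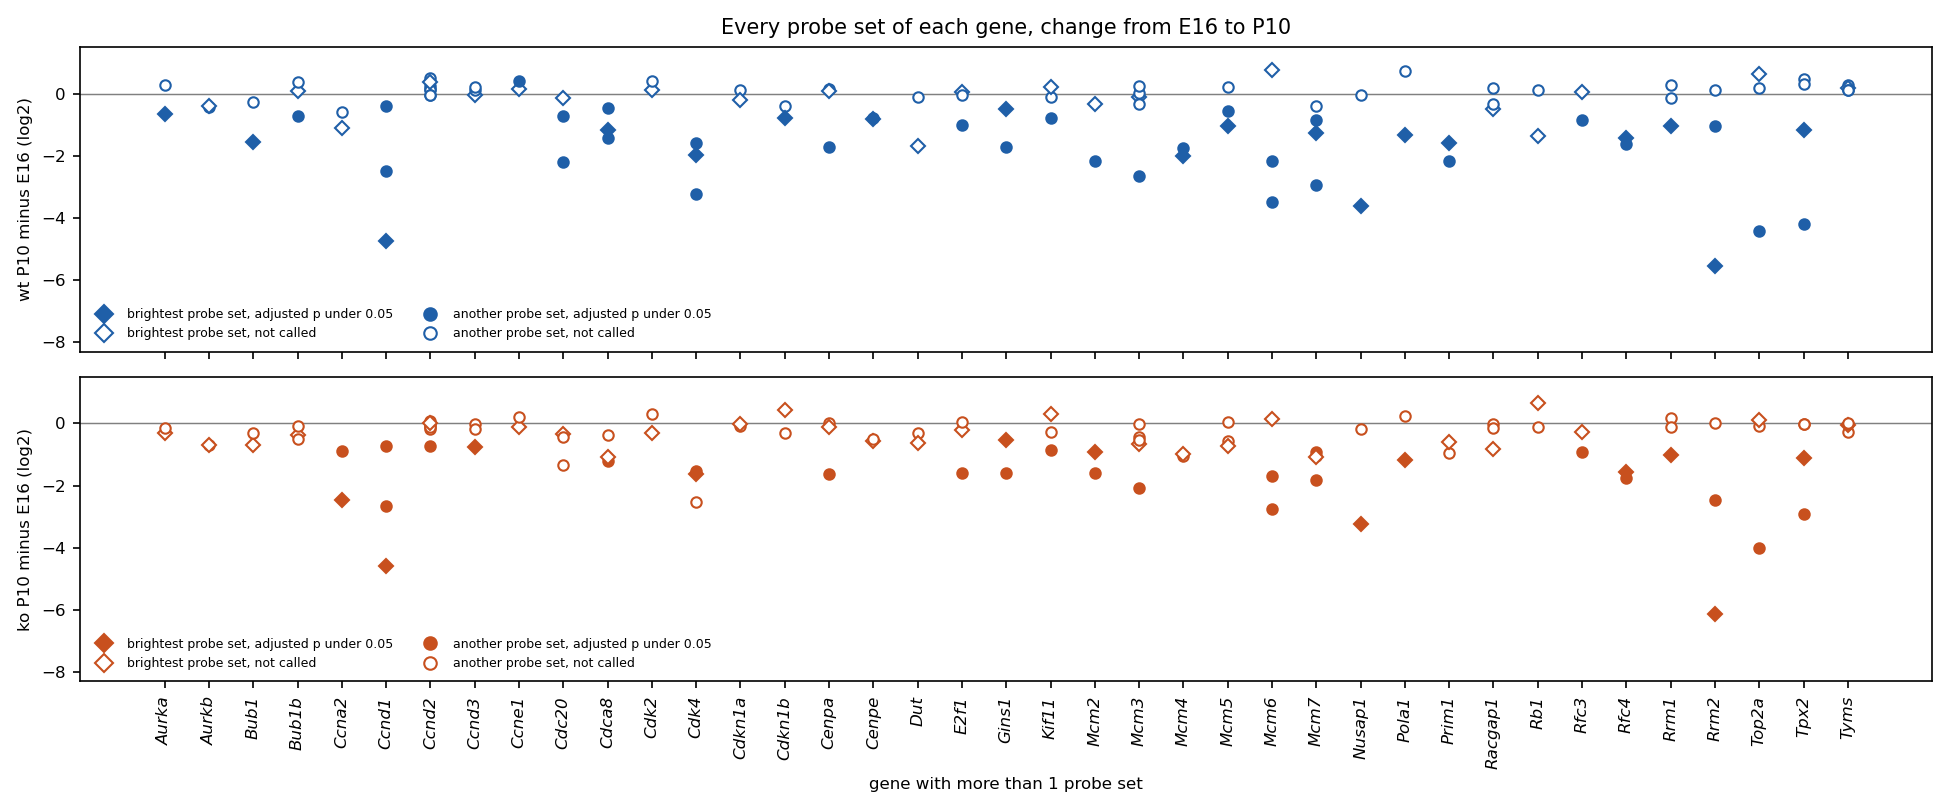
Change from E16 to P10 (y axis, log2) of every probe set of the 39 genes with more than 1 (x axis), in wt (upper panel) and ko (lower panel), with diamonds for the brightest probe set, circles for the others, and filled symbols where limma called the change over all probe sets. Several genes, such as Top2a, Mcm6 and Mcm3, have an open diamond near 0 and a filled circle well below it.

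The deposited detection calls, 1 per probe set for each genotype and stage, were fewer at later stages. Among the 53 genes, 43 were listed as present in wt at E16, 38 at P2, 29 at P6 and 24 at P10. In ko the numbers were 37, 30, 24 and 23. Over all genes the share present went from 47.6% to 38.7% in wt and from 43.1% to 40.9% in ko between E16 and P10. Of the genes called lower from E16 to P10, 14 of 27 in wt and 10 of 21 in ko were listed as present at E16 and absent at P10. In ko, 5 more (Ccnb2, Mcm2, Plk1, Tpx2 and Cdkn1c) were listed as absent at both stages. Tyms, Mcm2, Plk1, Cenpa and Cdkn2c were absent in all 10 columns. Where a gene was listed as absent at the later stage its level there is bounded by background, and its fall may be understated.

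Further genes of the same processes, listed beside the 53, were counted in the same way. Of 21 other replication genes, 6 had fallen by P6 and 11 by P10 in wt, and 3 and 5 in ko. The same contrasts called 5.05% and 14.3% of all genes lower in wt, and 3.32% and 4.38% in ko. Uhrf1, which maintains DNA methylation at the fork, fell by 2.73 to P10 in wt (adjusted p = 8.8e-05) and by 2.62 in ko (adjusted p = 5.54e-04). Cdt1, the licensing factor, fell by 2.13 in wt (adjusted p = 1.03e-04), and its ko change of -0.46 was not called (adjusted p = 0.672).

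Of 30 other mitosis genes, 13 had fallen by P6 and 17 by P10 in wt, and 10 and 9 in ko. The shares of all genes called lower were again 5.05% and 14.3% in wt, and 3.32% and 4.38% in ko. Cks2, a CDK-binding subunit, fell by 4.62 to P10 in wt (adjusted p = 9.62e-06) and by 3.44 in ko (adjusted p = 0.00158), and Prc1, which bundles midzone microtubules, fell by 2.90 and 2.31 (adjusted p = 2.01e-04 and 0.00736). Of 26 other regulators, 9 had fallen and 3 had risen by P10 in wt, beside 14.3% of all genes called lower and 9.2% called higher. In ko 5 had fallen, beside 4.38% of all genes. Mycn, a growth-promoting transcription factor of progenitors, fell by 3.01 in wt (adjusted p = 0.00231), and its ko change of -1.52 was not called (adjusted p = 0.27).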

How the data were processed

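RNA of sorted GFP-positive cells was hybridised to 39 Affymetrix arrays. The authors deposited log2 values made with RMA, per the submitters' processing notes, with no version given, and a table of other values, the detection calls (present, marginal or absent), 1 column per genotype and stage. How arrays were combined in those calls is not given in the sources used here, and columns named Ad were assigned to no group. Arrays were grouped by the genotype and stage in their titles. Array means lay between 6.94 and 7.01 and array SDs between 1.34 and 1.80. Their number limits the precision. The 2 most similar arrays correlated at 0.996, and no array was treated as a duplicate.

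Of 45101 probe sets, 64 controls were removed. Of the other 45037, 34945 were paired with 1 gene, 932 with several and 9160 with none in the platform annotation used, and the brightest probe set per gene (highest mean over all arrays) was kept for 18193 genes. Group means were fitted with limma 3.58.1 in R 4.3.3 (lmFit, eBayes; 29 residual and 2.81 prior degrees of freedom), with no filter on low values and Benjamini-Hochberg adjustment over all genes per contrast. Figures and summaries used Python 3.11.15. The test was tried on simulated data first. Later stages were compared with E16, neighbouring stages with each other, and ko with wt, and the change from E16 was compared between genotypes. The 53 genes and all lists were chosen with earlier results of these data known. All 53 genes are covered by counts. Array values are given for genes with the largest change from E16 to P10, for those called between genotypes and for all regulators, and for the other lists up to 4 genes of largest change are named.

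Replicate numbers were checked as pairs by the correlation of deviations from group means. All pairs exceeded 0.1 for ko P2 with ko E16 (3 pairs, 0.299 to 0.743) and ko P6 with ko P2 (4 pairs, 0.127 to 0.841), and in no other contrast. Alternatives were quantile normalization, equal median and spread, the mean of a gene's probe sets, a filter on present calls, a mean-variance trend, only the groups of a contrast, a replicate block, leaving out each array, and leaving out 6 arrays. Fitting every probe set was added after seeing the data. Promoter windows came from RefSeq (GRCm38.p6).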

Additional observations from a re-analysis of the deposited data

Results flagged for a closer look

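The array labelled ko 4 weeks replicate 2 was the highest of its group and was flagged by Dixon's test at 95% for 15 of the 53 genes. The same held for the median of the replication and nucleotide genes (9.00) and the median of all 53 genes (8.34). Chance alone passes this test in about 1 of 20 groups. Outside ko 4 weeks it was passed in 6.6% of the sets of 4 arrays. For ko 4 weeks no share over all genes was computed. The array labelled ko 4 weeks replicate 2 was known from earlier results of these data to stand apart, so these flags are not independent evidence. Among the 15 genes was Cdkn2c, at 7.77 against 7.34 to 7.40 and listed as absent in every column of detection calls.

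The change from E16 differed between the genotypes, by limma's test of the difference itself, for 4 genes. For Ccnd3 the difference, ko minus wt, was -0.70 at P6, -0.72 at P10 and -0.74 at 4 weeks. At 4 weeks it was 0.80 for Bub1b, 0.63 for Cdkn1c and -0.53 for Cdkn2c.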

How the results depend on the processing

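No called change of a single gene reversed its sign under any alternative. Counts have no sign, and genes not called with all arrays were not checked for a reversal. Among those, Top2a in wt from E16 to P10 stood at 0.64 on its brightest probe set and at -4.42 on 1454694_a_at. Of 6808 recomputed calls on single genes, 413 were lost, and of 1104 recomputed counts, 165 moved by over 1.5 times. Counts below are genes of the 53 called, lower for contrasts with E16 and in either direction otherwise, with the reported count first. Where a group comparison fell to 0 or rose, the cause was not tested, except that using only the groups of a contrast leaves fewer arrays to estimate the spread.

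For wt P2 against E16 (1), the count was 11 without the 6 doubted arrays, 2 with the filter on present calls, 7 with only the groups of the contrast and 2 with every probe set. For wt P6 (18) it was 28 without the 6 arrays and 29 with every probe set. For ko P2 (1) it was 14 without the 6 arrays, 0 with mean probe sets, 0 with only the groups and 2 with every probe set. For ko P6 (17) it was 2 with only the groups and 28 with every probe set, and for ko P10 (21) it was 10 with only the groups. For ko 4 weeks (8) it was 27 without the 6 arrays, 16 after quantile normalization, 18 with mean probe sets, 0 with only the groups and 13 with every probe set.

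Between stages, wt P6 against P2 (0) gave 8 without the 6 arrays and 1 after quantile normalization, and wt P10 against P6 (0) gave 1, 2 and, with equal median and spread, 2. wt 4 weeks against P10 (1) gave 2 with mean probe sets, 0 with the present filter, 0 with only the groups and 2 with every probe set. ko P6 against P2 (3) gave 11, 7 and 7 without the 6 arrays, after quantile normalization and with only the groups, and ko P10 against P6 (0) gave 3 with only the groups.

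Between genotypes, E16 (2) gave 0 after quantile normalization, 0 with equal spread, 1 with mean probe sets and 0 with only the groups. P6 (1) gave 3 without the 6 arrays, 2 after quantile normalization, 2 with equal spread, 0 with mean probe sets and 0 with only the groups. P10 (2) gave 5, 4, 4 and 1 after quantile normalization, with equal spread, with the present filter and with every probe set, and 4 weeks (2) gave 1 with only the groups. For the difference of changes, P2 (0), P6 (1) and P10 (1) each gave 2 without the 6 arrays, and P6 and P10 gave 0 after quantile normalization, with equal spread, with mean probe sets and with only the groups. At 4 weeks (4) it was 2 after quantile normalization, with equal spread, with mean probe sets and with the trend, and 0 with only the groups.

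With the replicate block the difference of changes at 4 weeks gave 2 genes, and the counts against E16 were 1, 19, 27 and 28 in wt and 1, 15, 20 and 8 in ko. Beside Cdkn1c from ko P2 to ko P6, given in the report, calls lost under the block were in contrasts whose numbers did not pair all arrays.

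Leaving out each array in turn gave 1 to 6, 6 to 22, 21 to 31 and 22 to 30 genes in wt at P2, P6, P10 and 4 weeks, and 0 to 12, 6 to 21, 12 to 25 and 5 to 24 in ko. Between stages it gave 0 to 4, 0 to 2 and 1 to 6 in wt, and 1 to 7, 0 to 0 and 1 to 1 in ko. Between genotypes it gave 0 to 3, 0 to 0, 0 to 2, 0 to 4 and 1 to 3 from E16 to 4 weeks, and for the difference of changes 0 to 1, 0 to 2, 0 to 3 and 1 to 5. Genes listed as absent have levels bounded by background, which limits the size of their falls.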
